A study of Mus musculus with 24 samples.

Results

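The comparison described here sets CA1 tissue of mice that had lost Kat2a in forebrain excitatory neurons against CA1 tissue of control mice, with both genotypes taken after a novelty exposure of 15 min. It rests on 12 of the 24 RNA-seq libraries of the study, 5 from control and 7 from conditional knockout (cKO) mice, and on all genes with enough reads to be tested. All mice were C57BL/6J, aged 3 to 5 months, and the tissue was the CA1 subfield dissected from the hippocampus. Control mice carried the floxed allele, given as Kat2afl/fl, without a stated Cre transgene. The cKO mice carried the same floxed allele and Cre under the CamKII alpha promoter, given as Kat2afl/fl ; CamKII_alpha-cre+. Because Cre came only with the knockout, effects of Kat2a loss and of Cre itself cannot be told apart. Cells other than excitatory neurons, among them glia, vessel cells and most interneurons, are mostly outside the reach of this promoter. The remaining 12 libraries come from mice of the same genotypes with no exposure (naive, 6 and 6) and are used beside the main comparison. Whether each library is a separate mouse is not stated in the labels, and p-values here describe the spread between libraries, which may be technical.

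Kat2a, also known as Gcn5, is a lysine acetyltransferase that places acetyl groups on histone tails, mainly on histone H3. It works as the catalytic subunit of the SAGA and ATAC coactivator complexes, which are recruited to promoters and enhancers by transcription factors. CA1 pyramidal neurons carry most of the output of the hippocampus, and a new environment briefly induces activity-dependent genes in them.

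Reads assigned to genes numbered 13876546 to 35754503 per library in the control group and 13020484 to 21183762 in the cKO group. The deepest was control library 2, with 35754503, and the next control was library 1, with 20816552. Reads without a unique position made up 15.5 to 17.2% of control and 14.8 to 15.7% of cKO libraries. On the first principal component, which held 23.9% of the variance of the 12 libraries, control libraries lay between -17.5 and -1.48 and cKO libraries between -9.07 and 13.97, with cKO library 3 the lowest of its group. No pair of libraries within a group differed by as little as sampling noise.

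The targeted transcript was reduced in all cKO libraries. Kat2a (ENSMUSG00000020918, GRCm38 chr11:100704746-100712465) measured 63.3, 57.5, 60.2, 64.2 and 55.98 CPM in the 5 control libraries. CPM are counts of reads after the libraries have been put on the same scale. The 7 cKO libraries lay at 31.2 to 38.3 CPM with a median of 34.96. The groups do not overlap, which held for 3.14% of all genes tested, and the cKO mean was 58.4% of the control mean (exact two-sided permutation test over 792 splits, p = 0.00126, the smallest these groups can give). On the log2 scale this is -0.77 (SE 0.05, with an adjusted p of 6.36e-07 in edgeR). The tissue also holds cells without Cre, and counts cover the whole gene, so that the level in targeted neurons alone was not measured. In bulk tissue of this kind, fewer cells of a type and less RNA per cell cannot be told apart, here and in all results that follow. Kat2b, the paralogue of Kat2a, measured 23.2 ± 1.27 CPM in control and 21.2 ± 1.68 CPM in cKO libraries and did not pass (log2 fold change -0.13, SE 0.06, edgeR adjusted p = 0.243).

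**Figure D1:**
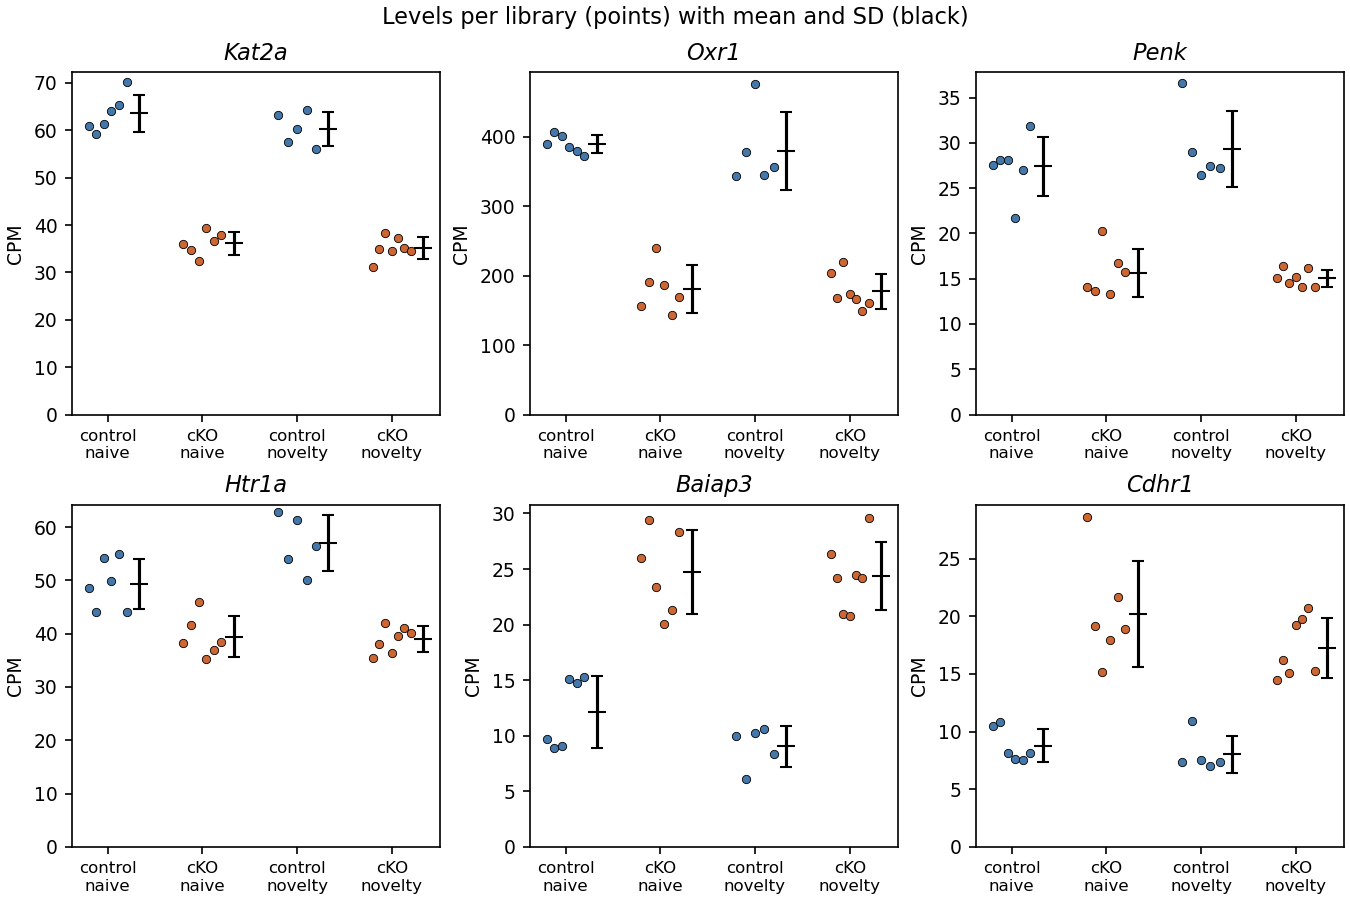
Each panel shows 1 gene, with CPM from 0 on the vertical axis and the 4 groups along the horizontal axis. Points are single libraries (6 control naive, 6 cKO naive, 5 control novelty and 7 cKO novelty), and the black mark is the group mean with its SD. After novelty, every cKO library lies below every control library for Kat2a, Oxr1, Penk and Htr1a, and above every control library for Baiap3 and Cdhr1.

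Loss of Kat2a came with many small changes in CA1 after novelty, in both directions. Of 16188 genes tested, 733 passed (4.53%, edgeR quasi-likelihood test, adjusted p below 0.05). Of these, 344 were higher in cKO mice (2.13% of those tested) and 389 were lower (2.4%). The 2 groups of libraries did not overlap at 220 of the lower and 180 of the higher genes. Most changes were small, with a median log2 size of 0.27 among lower genes and 0.34 among higher genes. More than 1.5-fold separated the genotypes at 26 lower and 87 higher genes, and more than 2-fold at 3 lower and 28 higher genes. Lower genes had a median control level of 26.9 CPM per kilobase of exon against 5.07 over all genes tested, whereas higher genes had a median of 3.16. The 100 genes with the most reads took 14.04 to 14.63% of assigned reads in the controls and 13.59 to 13.92% in cKO libraries, and the TMM scaling factors were 0.972 to 0.994 and 0.998 to 1.027, without overlap in either measure; their part in this pattern was not tested. Higher genes were also richer in GC, with a median of 53.3% over the longest transcript against 49.7% over all tested genes and 48.7% in lower genes. Library slopes with GC content ran from -0.046 to 0.049 log2 units per 10 points of GC in the controls and from -0.038 to 0.087 in cKO libraries, and their part in this pattern was not tested. Of all genes tested, 47.3% had a value below 0 and 3353 (20.7%) an unadjusted p below 0.05, shares against which the lists that follow can be read. Pseudogenes made up 33 of the lower and 2 of the higher genes, and 775 of all genes tested.

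**Figure D2:**
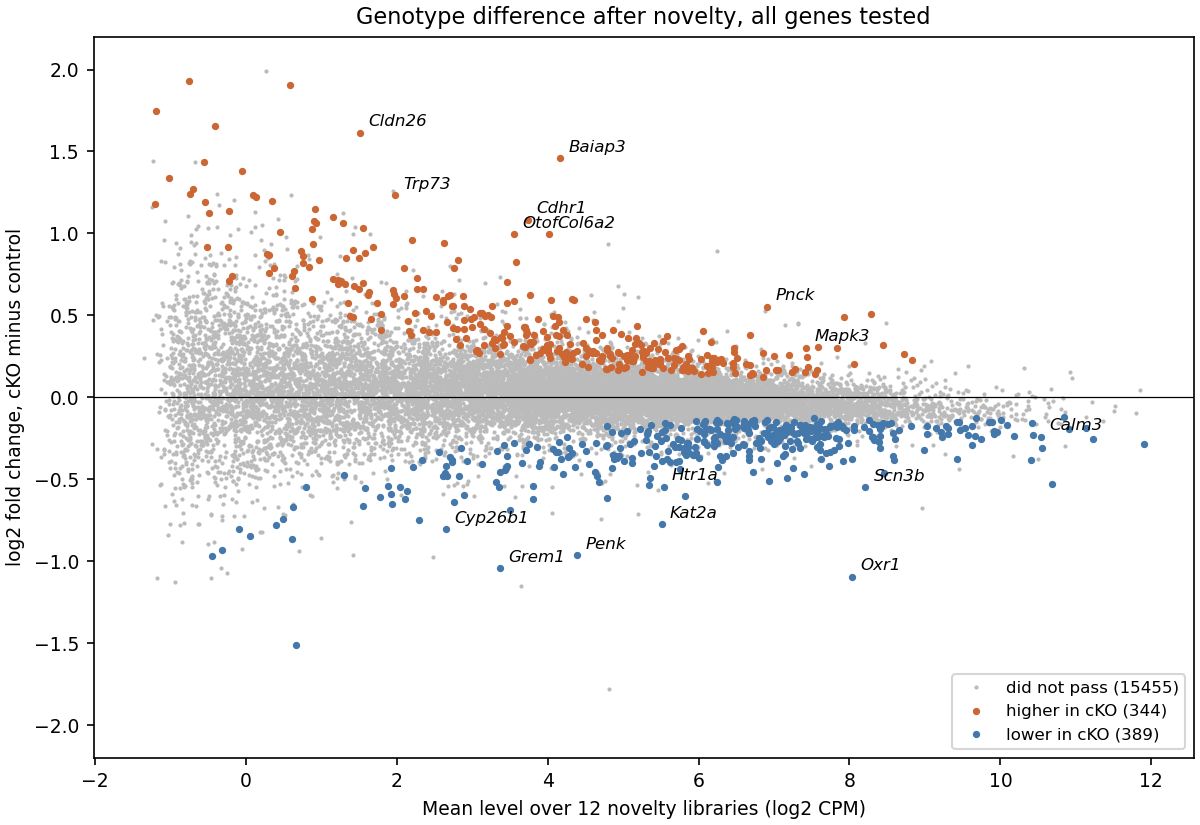
The horizontal axis is the mean level over the 12 novelty libraries (log2 CPM) and the vertical axis the log2 fold change, cKO minus control; each point is 1 of the 16188 genes. The 344 higher genes in orange reach far into the low levels at left, while many of the 389 lower genes in blue lie at higher levels and close to 0.

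The count of calls moved with the libraries included. It ranged from 324 to 1025 when each of the 12 libraries was left out in turn, and 150 lower and 112 higher genes passed in all 12 of these fits. The counts that moved by more than 1.5 times were 324 without control library 2, 473 without control library 3, 364 without control library 5, 430 without cKO library 5 and 484 without cKO library 7. Among libraries numbered 1 to 3 in the titles alone, 17 genes passed, and among those numbered 4 and above 121 passed. The latter part holds control libraries 4 and 5 and cKO libraries 4 to 7. Both parts have fewer libraries than the main comparison, so that their counts cannot be set directly against its count. The GC slopes given above were -0.046 to -0.010 in novelty libraries 1 to 3 and -0.021 to 0.087 in those numbered 4 and above. The labels do not say which libraries were sequenced paired-end or single-end, and the source of this difference was not tested. All of the 99 genes named by rule kept the sign of their difference in both of these parts. Because they were chosen on these same 12 libraries, this was largely fixed in advance and is no independent support.

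Among genes that met the rule for names, the largest decrease was in Oxr1, a gene of the TLDc family that protects neurons against oxidative damage. Oxr1 (GRCm38 chr15:41447482-41861048) measured 343, 379, 476, 345 and 356 CPM in control libraries and 149 to 220.2 CPM with a median of 169 in cKO libraries. The groups lie far apart, and control library 3 is the highest of all. The mean went from 379.9 ± 55.8 to 178 ± 25.1 CPM (log2 fold change -1.09, SE 0.10, edgeR adjusted p = 0.000254). In naive mice, which share no library with these groups, the log2 difference was -1.10. Of the genes within 1 Mb of Oxr1, 2 were tested and neither passed. Around Camk2a, whose promoter drives Cre in the transgene, 23 genes within 1 Mb were tested and 2 passed, Rps14 lower (-0.43) and Slc6a7 higher (0.27). Over all genes tested 4.53% passed. Rps14 is also among the lower ribosomal protein genes described below. These counts do not test where the transgene lies or what it does to nearby genes.

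Grem1 and Penk, which encode secreted proteins, followed. Grem1 encodes gremlin, an extracellular antagonist of bone morphogenetic proteins (BMP). It measured 17.2, 13.8, 14.1, 16.4 and 11.9 CPM in controls and 4.51 to 10.1 CPM with a median of 7.098 in cKO libraries (log2 fold change -1.04, SE 0.16, edgeR adjusted p = 0.0037). Every cKO library lies below every control library. Penk, the precursor of the enkephalin opioid peptides, measured 36.6, 29.02, 26.4, 27.4 and 27.2 CPM in controls and 14.04 to 16.4 CPM with a median of 15.04 in cKO libraries (log2 fold change -0.96, SE 0.08, edgeR adjusted p = 6.27e-06). The cKO libraries are tightly grouped for Penk and control library 1 stands above the other controls.

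The further decreases of this set, beside Kat2a itself, were smaller. Cyp26b1, which degrades retinoic acid, fell from 8.47 ± 0.521 to 4.78 ± 1.66 CPM (log2 -0.80, SE 0.19), and passed in 5 of the 12 fits that leave out 1 library. Adcyap1, the precursor of the neuropeptide PACAP, fell from 6.37 ± 1.79 to 3.85 ± 1.05 CPM (log2 -0.75, SE 0.20) and passed in 4 of them. Lefty1, an inhibitor of Nodal signalling, had a log2 fold change of -0.69, SE 0.15, and Apln, the precursor of the peptide apelin, of -0.62, SE 0.11. The receptor genes Htr1b (-0.66), Npbwr1 (-0.65) and Mc4r (-0.64) fell as well, and so did Scn4b (-0.61), a sodium channel beta subunit. Fam19a1, which encodes a secreted chemokine-like protein, fell from 70.4 ± 8.97 to 46.4 ± 7.73 CPM (-0.60), and Stac, a regulator of calcium channels, had -0.59.

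The largest increases by the same rule were in genes of low level in control CA1. Baiap3 encodes a C2-domain protein of the Munc13 family that acts in dense-core vesicle and endosome traffic. Baiap3 (GRCm38 chr17:25242659-25256364) measured 9.94, 6.08, 10.2, 10.6 and 8.39 CPM in controls and 20.7 to 29.6 CPM with a median of 24.2 in cKO libraries (log2 fold change 1.46, SE 0.13, edgeR adjusted p = 8.98e-05). The lowest cKO library is still well above the highest control. Cdhr1, a cadherin-related gene known from photoreceptors, measured 7.32, 10.9, 7.501, 7.04 and 7.39 CPM in controls and 14.4 to 20.7 CPM with a median of 16.2 in cKO libraries (log2 fold change 1.08, SE 0.13, edgeR adjusted p = 0.000356). The groups do not overlap, although control library 2 stands above the other controls.

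Otof, which encodes otoferlin, a calcium sensor of vesicle fusion in hair cells, and Col6a2, a chain of collagen VI, were also higher. Otof measured 7.57, 7.42, 7.67, 7.91 and 6.74 CPM in controls and 10.4 to 21.5 CPM with a median of 13.3 in cKO libraries (log2 fold change 0.996, SE 0.16, edgeR adjusted p = 0.00408). Col6a2 measured 9.55, 8.902, 11.8, 12.4 and 8.93 CPM in controls and 16.8 to 26.3 CPM with a median of 19.1 in cKO libraries (log2 fold change 0.997, SE 0.13, edgeR adjusted p = 0.00081). Neither gene overlaps between the groups.

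Lower still in level were Cldn26 (from 1.296 ± 0.291 to 3.99 ± 1.91 CPM, log2 1.62, SE 0.34), a claudin-like gene, and Trp73 (from 2.19 ± 0.357 to 5.21 ± 1.58 CPM, log2 1.23, SE 0.21), a member of the p53 family. Cldn26 passed in 11 of the 12 fits that leave out 1 library. Ano2, a calcium-activated chloride channel, rose from 3.99 ± 1.05 to 7.79 ± 1.21 CPM (log2 0.94, SE 0.15). The other genes of this set were Olfm4 (1.03), the matrix gene Mfap4 (0.92), Hydin (0.88) and Wdr66 (0.82), both known from motile cilia (ependyma markers are given with the other cell types below), the RNA-binding protein gene Ybx2 (0.85), Epb4.1l4a (0.84) and the myosin gene Myo1h (0.79). Hydin passed in 2 of the 12 fits that leave out 1 library, and Ybx2 in 8.

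**Figure D3:**
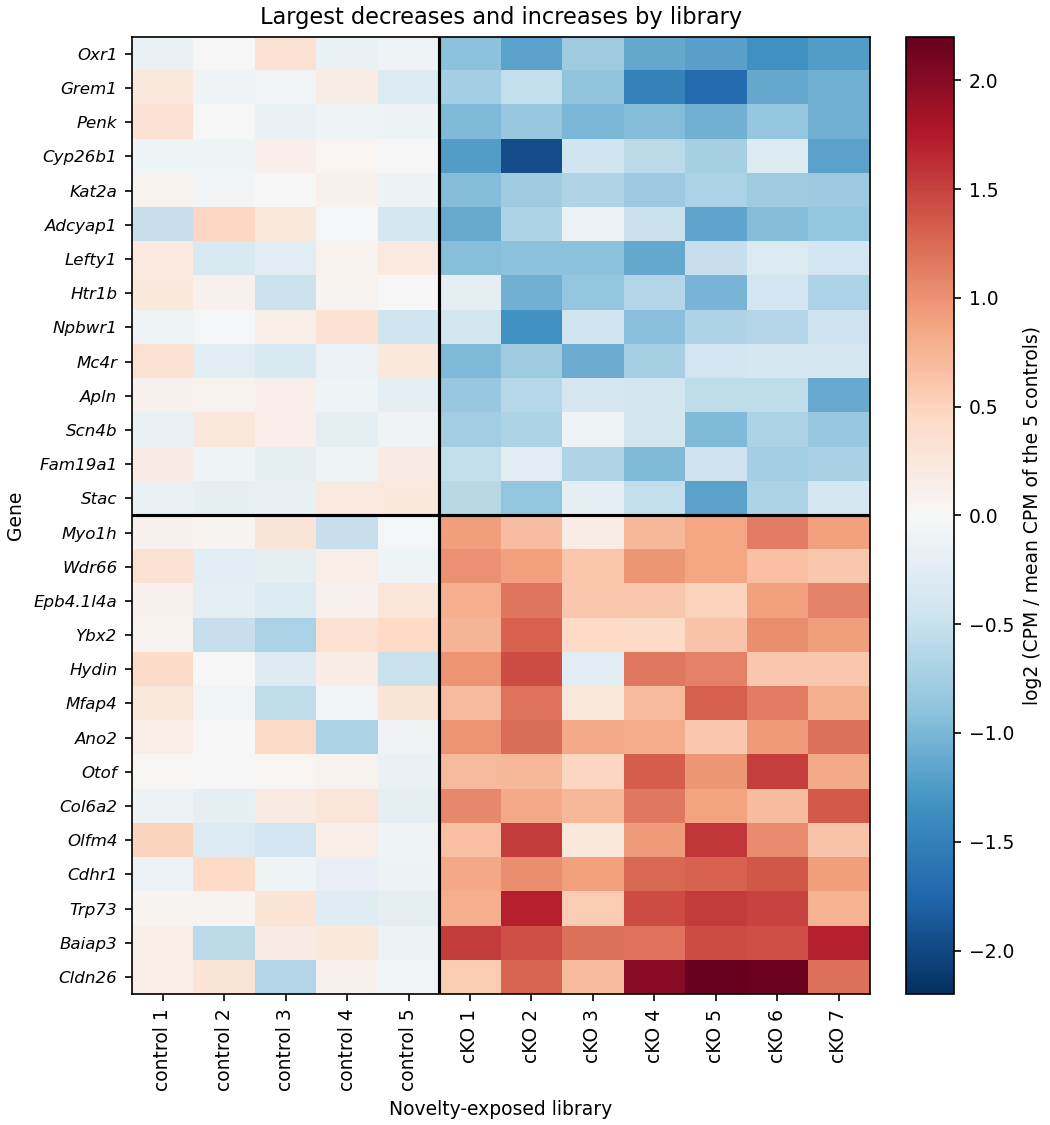
Rows are the 14 largest decreases (top) and the 14 largest increases (bottom) named by rule, and columns are the 5 control and 7 cKO novelty libraries. Colour is log2 of CPM over the mean of the 5 controls, blue for lower and red for higher; cKO library 3 is paler than most others for Adcyap1, Scn4b, Olfm4 and Hydin.

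Promoters are shown for 2 pairs of genes picked by hand: the serotonin receptor genes Htr1a and Htr2a, which fell, and Baiap3 and Cdhr1, which rose. Htr1b, which also fell, is not shown. Whether Kat2a complexes act at these promoters was not measured. The windows are from RefSeq on GRCm38.p6 and run from 250 bases before to 50 bases after the start, 5′ to 3′ on the gene's strand. Capitals mark the GC box GGGCGG on either strand. It was found in 35.7% of all 32851 windows of this table.
Htr1a, chr13:105443443-105443742, plus strand: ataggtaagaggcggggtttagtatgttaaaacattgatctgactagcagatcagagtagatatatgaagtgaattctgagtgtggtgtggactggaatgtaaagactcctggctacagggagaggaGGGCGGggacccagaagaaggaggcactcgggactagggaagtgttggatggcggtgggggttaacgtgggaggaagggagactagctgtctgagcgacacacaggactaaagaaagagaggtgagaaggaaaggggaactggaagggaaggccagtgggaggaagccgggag
Htr2a, chr14:74640624-74640923, plus strand: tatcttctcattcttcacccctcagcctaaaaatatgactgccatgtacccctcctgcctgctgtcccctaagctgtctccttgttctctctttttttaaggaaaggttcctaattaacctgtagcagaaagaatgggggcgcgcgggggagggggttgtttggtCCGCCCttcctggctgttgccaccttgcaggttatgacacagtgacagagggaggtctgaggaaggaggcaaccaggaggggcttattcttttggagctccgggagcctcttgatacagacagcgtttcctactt
Baiap3, chr17:25256315-25256614, minus strand: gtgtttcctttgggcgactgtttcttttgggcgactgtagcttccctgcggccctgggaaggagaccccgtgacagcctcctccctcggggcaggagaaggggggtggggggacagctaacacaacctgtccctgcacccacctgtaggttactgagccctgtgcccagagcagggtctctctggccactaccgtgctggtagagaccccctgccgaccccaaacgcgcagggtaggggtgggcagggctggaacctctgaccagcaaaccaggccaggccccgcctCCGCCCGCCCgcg
Cdhr1, chr14:37098298-37098597, minus strand: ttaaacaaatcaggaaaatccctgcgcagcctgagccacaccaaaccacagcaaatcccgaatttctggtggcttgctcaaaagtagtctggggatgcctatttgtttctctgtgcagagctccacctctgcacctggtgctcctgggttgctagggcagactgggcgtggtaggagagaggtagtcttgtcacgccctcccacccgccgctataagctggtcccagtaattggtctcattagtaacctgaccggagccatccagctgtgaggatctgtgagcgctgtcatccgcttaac
The box occurs once in each receptor window and as 2 overlapping matches in Baiap3, and these letters are not in the Cdhr1 window. The Grem1 window, not printed because Grem1 belongs to neither pair, holds 3. The CRE half-site TGACG, found in 20.8% of all windows on either strand, and the TATA sequence TATAAA, found in 13.6%, are in none of the 4. Windows were matched to 509 of the 733 genes that passed (69.4%), too few for a comparison of the whole set, and a match is no evidence of binding.

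Among 21 receptors for serotonin, dopamine and noradrenaline, 3 serotonin receptor genes fell and 1 rose, where 2.4 and 2.13% of all genes tested did so. Htr1a encodes an inhibitory receptor of CA1 pyramidal neurons. It measured 62.9, 54.1, 61.3, 50.1 and 56.4 CPM in controls and 35.5 to 41.96 CPM with a median of 39.6 in cKO libraries (log2 fold change -0.55, SE 0.06, edgeR adjusted p = 0.000201). Htr2a, an excitatory receptor coupled to phospholipase C, measured 14, 11.8, 12.2, 11.8 and 12.9 CPM in controls and 7.67 to 9.62 CPM with a median of 8.83 in cKO libraries (log2 fold change -0.55, SE 0.08, edgeR adjusted p = 0.000843). In both genes the groups are fully apart. The third was Htr1b (-0.66, SE 0.16). Htr3a, a ligand-gated channel found mainly in interneurons, rose from 12.01 ± 1.09 to 15.7 ± 2.43 CPM (0.38, SE 0.10), a call that was lost in most fits that leave out 1 library (it passed in 3 of 12). The list median was -0.08, against 0.01 over all genes tested.

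Other transmitter receptors changed in few members, always downward among those that passed, where 2.4% of all genes fell and 2.13% rose. Among GABA receptor subunit genes, Gabrb2 fell (from 201 ± 3.77 to 167 ± 15.4 CPM, log2 -0.27, SE 0.05), and so did Gabra5 (-0.30, SE 0.06), known for tonic inhibition in CA1. Of 17 AMPA, kainate and NMDA subunit genes, only Gria3 passed (from 374 ± 16.4 to 309 ± 21.4 CPM, log2 -0.27, SE 0.05). Of 7 metabotropic glutamate receptor genes, Grm3 fell (-0.27), and of 10 acetylcholine receptor genes, Chrm3 fell (-0.26). With upper-quartile scaling Grm3 and Chrm3 no longer passed.

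Most neuropeptide precursors had lower values in cKO mice, with 16 of 18 members below 0 and a median log2 fold change of -0.22. Over all genes tested, 47.3% lay below 0, the median was 0.01, 2.4% fell and 2.13% rose. The 3 precursors that passed were Penk, Adcyap1 and Cck, the precursor of cholecystokinin, which fell from 196 ± 7.21 to 164 ± 16.2 CPM (-0.25, SE 0.06). Neuropeptide receptors moved both ways. Of 25, 3 rose, namely the somatostatin receptor gene Sstr3, found on neuronal cilia (from 30.8 ± 3.06 to 39.6 ± 3.23 CPM, log2 0.36, SE 0.07), the substance P receptor gene Tacr1 (0.68) and the VIP receptor gene Vipr1 (0.20). The melanocortin receptor gene Mc4r fell from 8.61 ± 1.78 to 5.48 ± 1.08 CPM (-0.64, SE 0.15), with no overlap between the groups.

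Genes of sodium, Hcn and potassium channels that passed in edgeR were lower. Scn3b, a sodium channel beta subunit, measured 435, 338, 309, 367 and 365 CPM in controls and 215 to 273 CPM with a median of 253 in cKO libraries (log2 fold change -0.55, SE 0.07, edgeR adjusted p = 0.00137). Every cKO library lies below every control. Of 13 sodium and Hcn channel genes, 3 fell, the others being Scn4b and Hcn2, a pacemaker channel of dendrites (-0.19, SE 0.04), and only Scn3b held without control library 2. Of 53 potassium channel genes, 6 fell and none rose in edgeR, against 2.4 and 2.13% of all genes. DESeq2 called 8 lower and 1 higher. Among them were Kcnip4 (-0.29, SE 0.06) and Kcnd2 (-0.17, SE 0.04), a subunit pair of the dendritic A-type current, together with Kcnab1 (-0.24) and Kcnq3 (-0.26), a subunit of the M current. The potassium channel count was 4 with upper-quartile scaling and 2 without control library 2. Of 31 calcium channel and store genes, the calcium pump gene Atp2b1 fell in edgeR (-0.31) and none rose. With upper-quartile scaling and with limma-voom 2 of these genes were higher and 1 lower, and in DESeq2 3 were higher and 2 lower.

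Genes of calcium and calmodulin signalling were called mainly lower. Of 19, 7 were lower and 1 was higher, against 2.4 and 2.13% of all genes, and 16 had a value below 0 (47.3% of all genes did), with a median of -0.10 against 0.01. Calm3, a calmodulin gene, measured 1711, 1589, 1572, 1607 and 1678 CPM in controls and 1308 to 1494 CPM with a median of 1395 in cKO libraries (log2 fold change -0.24, SE 0.04, edgeR adjusted p = 0.00311). Camkk2, which activates CaM kinases (-0.19, SE 0.04), and Ppp3r1, the regulatory subunit of calcineurin (-0.21, SE 0.05), also fell. Camk2a, whose promoter is the one that drives Cre here, measured 5047, 4153, 3647, 4202 and 4295 CPM in controls and 3168 to 3824 CPM with a median of 3551 in cKO libraries (log2 -0.28, SE 0.06). Control library 1 is the highest and control library 3 lies within the range of the cKO libraries, so that the groups overlap. Camk2a was named after its values were seen.

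Pnck, a CaM kinase of the CaMKI type, went the other way. It measured 86.3, 85.1, 108, 98.4 and 93.9 CPM in controls and 129 to 150.4 CPM with a median of 135 in cKO libraries (log2 fold change 0.55, SE 0.06, edgeR adjusted p = 0.000254). All cKO libraries are above all controls. The number of lower genes in the calmodulin list was 4 without control library 2.

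In the Ras to ERK cascade 1 gene rose and 3 fell, of 33 tested, where 2.13 and 2.4% of all genes did so, and 1 of 33 is near that share. Mapk3, which encodes the kinase ERK1, measured 168, 142, 156, 151 and 142 CPM in controls and 173 to 199 CPM with a median of 187 in cKO libraries (log2 fold change 0.30, SE 0.05, edgeR adjusted p = 0.00203). Hras1, a Ras GTPase, fell from 108 ± 3.798 to 88.1 ± 4.704 CPM (-0.29, SE 0.04), as did the Ras activator gene Rasgrp1 (-0.25, SE 0.05) and the inhibitor gene Spred2 (-0.15). Neither Mapk3 nor Hras1 overlaps between the groups. Among 20 adenylyl cyclases and phosphodiesterases, Adcy1, a calmodulin-stimulated cyclase (from 1567 ± 136 to 1202 ± 139 CPM, log2 -0.38, SE 0.08), and Adcy2 (-0.18) fell, and Adcy6 rose (0.23).

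Synaptic adhesion and scaffold genes of the postsynaptic side had 11 lower and no higher calls among 43 in edgeR, against 2.4% lower and 2.13% higher over all genes. Their median was -0.11 and 33 lay below 0, as did 47.3% of all genes. Cadm2, a synaptic adhesion molecule, measured 365, 367, 342, 347 and 333 CPM in controls and 277 to 324 CPM with a median of 297 in cKO libraries (log2 fold change -0.24, SE 0.04, edgeR adjusted p = 0.00357), without overlap. The cadherin genes Cdh8 (-0.23, SE 0.04) and Cdh10 (-0.25, SE 0.05) and Lrfn5, a leucine-rich repeat adhesion gene (-0.29, SE 0.05), fell by similar amounts. The count was 8 with upper-quartile scaling and also 8 without control library 2. On the presynaptic side, the synaptic vesicle genes Syp (-0.15, SE 0.04) and Vamp2 (-0.15, SE 0.04) fell, and the active zone gene Rims1 rose from 202 ± 16.7 to 248 ± 21.7 CPM (0.30, SE 0.06). Neither Syp nor Vamp2 passed without control library 2.

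Cytosolic ribosomal protein genes had the most lower calls of the lists. Of 40 in the list, 15 fell (2.4% of all genes tested did so), none rose in edgeR, and the median was -0.18 against 0.01 over all genes. Rps3, a protein of the small subunit, measured 262, 319, 309, 296 and 324 CPM in controls and 203 to 251 CPM with a median of 233 in cKO libraries (log2 fold change -0.38, SE 0.06, edgeR adjusted p = 0.00203). The groups do not overlap. Rps2 (-0.31, SE 0.04), Rpl32 (-0.36, SE 0.05) and Rpl15 (-0.34, SE 0.05) behaved alike, and the member with the highest value, Rpl27, was at 0.24, SE 0.15.

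Taking all 84 protein-coding cytosolic ribosomal protein genes found by symbol, a set added after values were seen, 25 fell and none rose in edgeR, with the same median of -0.18. Their pseudogenes, which share sequence with them, had 11 lower calls among 61 and a median of -0.28. Without control library 2 the pseudogenes had 4 lower calls and the 84 genes 20. The share of assigned reads on ribosomal protein genes was 0.522 to 0.590% in the controls and 0.452 to 0.569% in cKO libraries. Reads without a unique position, given above, ran higher in controls with overlapping ranges, and the part of multiple mapping in this result was not tested. Of 77 mitochondrial ribosomal protein genes none passed (8 at an unadjusted p below 0.05, and 1 in DESeq2), with a median of -0.00 that turned to 0.01 with upper-quartile scaling.

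Lists of growth factor, morphogen and matrix genes had 1 to 3 calls each, to be read against 2.13% higher and 2.4% lower over all genes. In the BMP, activin and TGF-beta list 3 of 35 fell, namely Grem1, Lefty1 and Id2, a target gene of BMP signalling (-0.24, SE 0.06). In the retinoic acid list, Aldh1a1, which makes retinoic acid, fell from 49.7 ± 2.29 to 34.2 ± 4.02 CPM (-0.54, SE 0.07), as did Cyp26b1, which removes it, while the nuclear receptor gene Rxrg rose from 7.06 ± 1.31 to 9.91 ± 0.883 CPM (0.52, SE 0.11); 19 were tested. Of 31 Wnt genes, the ligand gene Wnt7b rose (0.28, SE 0.05) and the ligand gene Wnt2 fell (-0.48), the latter a call lost with upper-quartile scaling. Of 24 Notch genes, the effector Hes5 rose from 4.73 ± 0.814 to 7.12 ± 0.848 CPM (0.59, SE 0.12). Of 36 extracellular matrix genes, Col6a2 and Col27a1 (0.46) rose, and Col27a1 passed in 3 of the 12 fits that leave out 1 library.

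Of 31 SAGA and ATAC subunit genes, the partners of Kat2a in its complexes, 4 rose and 2 fell, one of the latter being Kat2a itself. Over all genes 2.13% rose and 2.4% fell. Those that rose were Atxn7l2 (from 14.4 ± 3.21 to 19.9 ± 2.11 CPM, log2 0.49, SE 0.12), Yeats2 (0.23, SE 0.06), Atxn7 (0.20) and Taf6l (0.26), and Sf3b3 fell (-0.17). Without control library 2 only Kat2a passed. Of 20 other histone acetyltransferase genes, 1 rose, Brpf3, a scaffold of MYST-type complexes (0.22, SE 0.05). None of 18 histone deacetylase genes passed in edgeR or in DESeq2, and 6 had an unadjusted p below 0.05.

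Of 45 immediate early genes, which neuronal activity induces, none passed in edgeR (9 at an unadjusted p below 0.05), whereas DESeq2 called 2 higher and 2 lower. Without control library 2, 1 was higher in edgeR, and with the replicate numbers fitted as a block 1 was lower. The list median was 0.10, against 0.01 over all genes tested. It was 0.09 with RLE scaling and with DESeq2, 0.11 with upper-quartile scaling, 0.05 with limma-voom and -0.02 with the block. Arc, which acts on synaptic AMPA receptors, measured 124, 145, 77, 117 and 123 CPM in controls and 62.4 to 296 CPM with a median of 131 in cKO libraries. The cKO libraries cover the whole control range, and the difference was 0.44 on the log2 scale (SE 0.37, adjusted p = 0.545 in edgeR). Npas4, an activity-dependent transcription factor gene, had the highest value of the list at 0.80, SE 0.45 (edgeR adjusted p = 0.347). Fos was at 0.20, SE 0.26, Egr1 at -0.04, SE 0.13 and Homer1, a scaffold gene with an inducible short form, at 0.00 with an SE of 0.06. These genes other than Npas4 were named after their values were seen. The SEs of Arc and Npas4 are several times that of Homer1.

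Lists of stress, clock and housekeeping pathways had 0 to 2 calls each, shares that can be read against 4.53% of all genes. Bhlhe40, a repressor of the clock that is also known to be induced by activity, fell from 218 ± 11.1 to 178 ± 11.9 CPM (-0.28, SE 0.05), 1 of 19 clock genes. Klf9, a glucocorticoid-induced factor, fell from 190.2 ± 8.41 to 159 ± 10.2 CPM (-0.26, SE 0.05), 1 of 17 such genes. Of 20 p53 and DNA damage response genes, Ccng1 (-0.28) and Zmat3 (-0.20) fell, and neither passed without control library 2. Of 25 cholesterol genes Tm7sf2 rose (0.33), and of 29 NF-kappa-B genes the adaptor gene Traf3 rose (0.20, SE 0.04). No member passed in edgeR among 29 heat shock and unfolded protein response genes (5 at an unadjusted p below 0.05, 1 in DESeq2), 21 genes of CREB and its partners (2 and 1), 31 MHC class I and interferon genes (6 and 1) and 41 respiratory chain genes (11 and 1). The respiratory chain list had 36 of 41 members below 0, with a median of -0.07, against 47.3% below 0 and a median of 0.01 over all genes.

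**Figure D4:**
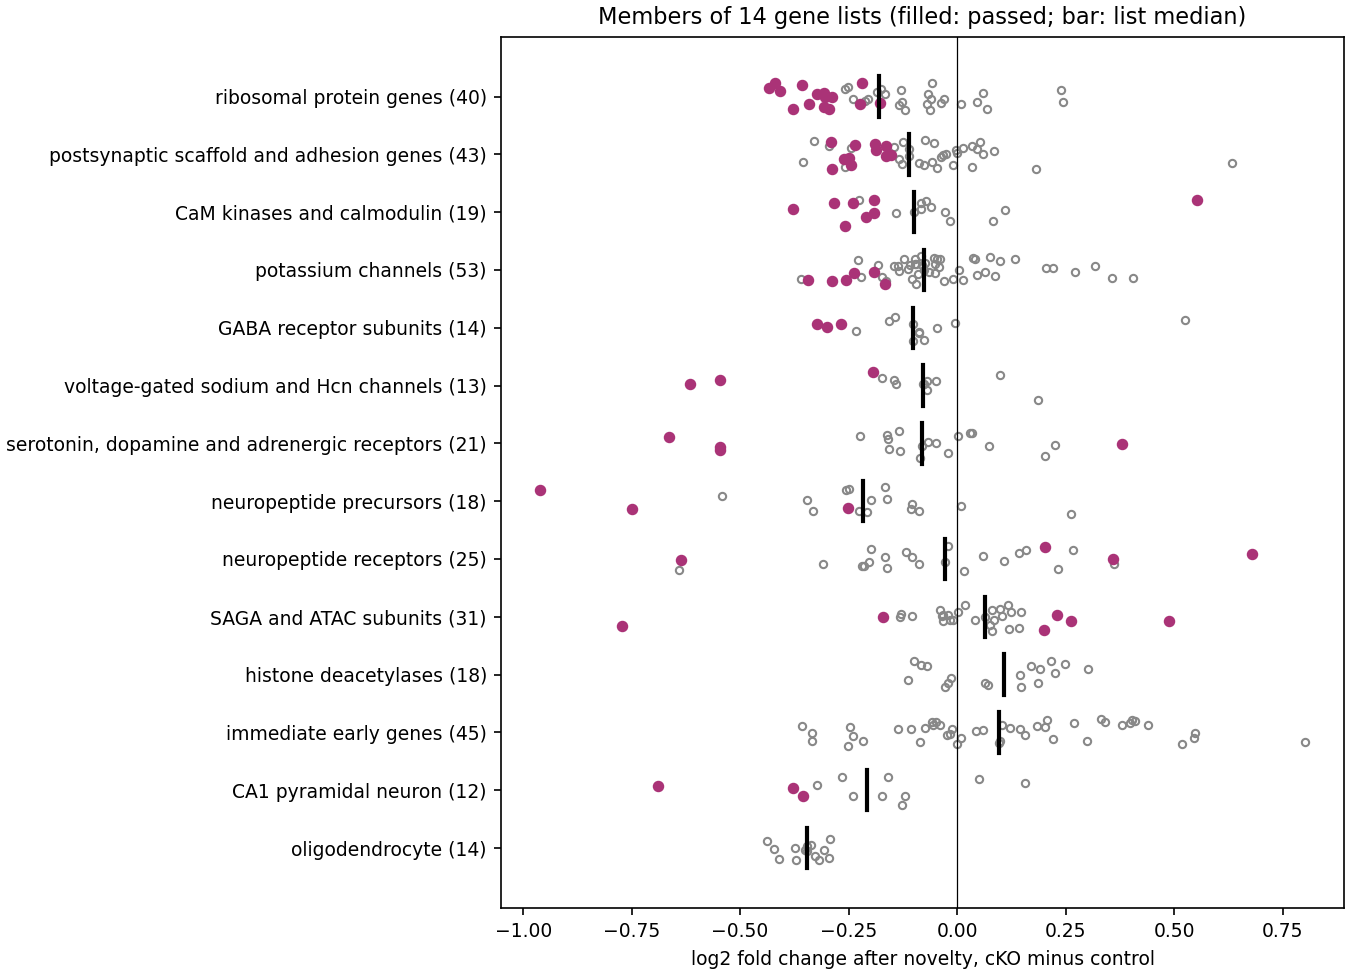
Each row is 1 of 14 gene lists, with the number of members tested in brackets, and each circle is 1 member at its log2 fold change (cKO minus control, horizontal axis). Filled circles passed, open ones did not, and the bar is the list median; most filled circles lie left of 0, and immediate early genes and oligodendrocyte markers have none.

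Markers of the dissected tissue and its neighbours were examined for each group. All 12 CA1 pyramidal markers were measured in both groups, with a summed level of 1766 to 2008 CPM in the controls and 1511 to 1796 in cKO libraries. Of these, 3 fell: Gpr161 (-0.36, SE 0.08), Lefty1 and Wfs1 (-0.38, SE 0.09), where 2.4% of all genes did. Wfs1 no longer passed when any 1 of control libraries 2, 3, 4 and 5 or cKO libraries 1, 2 and 7 was left out. The median was -0.21 against 0.01 over all genes. CA3 markers summed to 966 to 1122 CPM in the controls and 1056 to 1224 in cKO libraries, with Nnat higher (0.26) and Coch lower (-0.59) among 9. CA2 markers summed to 258 to 309 and 270 to 340 CPM, with Ccdc3 higher (0.61) among 8, a call lost with RLE scaling. Dentate granule markers summed to 309 to 585 CPM in the controls and 228 to 419 in cKO libraries, with a median of -0.34. None of these 11 passed in edgeR (5 at an unadjusted p below 0.05, 2 in DESeq2).

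Oligodendrocyte markers were lower in value in all 14 members, where 47.3% of all genes lay below 0. Their median was -0.35 and none passed in edgeR (11 at an unadjusted p below 0.05, 3 in DESeq2). Their sum was 4923 to 6006 CPM in the controls and 3407 to 6508 in cKO libraries, so that 1 or more cKO libraries lie below all controls and at least 1 lies above them. Astrocyte markers summed to 6713 to 7149 and 5812 to 7103 CPM, with S100b lower (-0.25, SE 0.05) among 13. Interneuron markers summed to 1599 to 1813 and 1477 to 1773 CPM, with Pvalb lower (-0.33, SE 0.08) among 17. Microglia markers summed to 563 to 623 and 556 to 636 CPM, and endothelial markers to 223 to 265 and 190 to 257 CPM, with Ly6c1 lower (-0.36). Of the neocortical list, Bcl6 (from 64.3 ± 2.297 to 51.2 ± 1.96 CPM, log2 -0.32, SE 0.04) and Lamp5 (-0.50) fell, and of the thalamic list Plekhg1 fell (-0.52). Choroid plexus and ependyma markers summed to 203 to 232 CPM in the controls and 133 to 227 in cKO libraries. Of 12, Folr1, Clic6, Aqp1, Kcnj13 and Otx2 were below 1 CPM, and 7 were tested, with a median of 0.21. None of these passed in edgeR (3 at an unadjusted p below 0.05, 1 in DESeq2). The lowest value was that of Ttr, a choroid plexus gene (-0.96, SE 0.73), and the highest that of Ccdc153, an ependyma gene (1.13, SE 0.43), which is on the same side as Hydin and Wdr66. Whether the make-up of the dissected tissue takes part in the gene differences above was not tested.

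The same genotype contrast in naive mice, made from 12 libraries that share none with the novelty groups, gave differences of the same sign for most of these genes. In naive mice 131 of 16360 genes passed (0.801%), 50 higher (0.306%) and 81 lower (0.495%). Of the 733 genes called after novelty, 729 were tested in naive mice and 702 of them (96.3%) had the same sign, 378 of 389 lower and 324 of 340 higher. Over all 16095 genes tested in both, 68.6% had the same sign. The median ratio of the naive to the novelty log2 difference was 0.65 among the called genes, which were chosen for passing after novelty. Genes that passed in both with the same sign numbered 86, or 11.8% of the novelty calls and 66.2% of the naive calls, and none passed with opposite signs. Across genes, which are not independent replicates, the log2 differences of the 2 exposures correlated at r = 0.44 (Spearman rho = 0.47).

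Named genes that passed in naive mice too included Kat2a (-0.81 in naive mice), Oxr1 (-1.10), Penk (-0.81), Grem1 (-0.86) and Cyp26b1 (-0.76). Cdhr1 (1.22), Ano2 (1.22), Baiap3 (1.02), Scn3b (-0.44), Pnck (0.34) and Mapk3 (0.31) did so as well, and this is not the full set. Smaller naive values, which did not pass, were found among others for Mc4r (-0.07), Scn4b (-0.19), Lefty1 (-0.21), Col6a2 (0.36), Calm3 (-0.14) and Tacr1 (0.02). In the test of the interaction itself, whether the genotype difference differs between exposures, 0 of 16744 genes passed in edgeR (688 at an unadjusted p below 0.05) and 0 in DESeq2 (792 at an unadjusted p below 0.05). The interaction value was 0.01 for Oxr1, 0.44 for Baiap3 and -0.56 for Mc4r on the log2 scale.

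**Figure D5:**
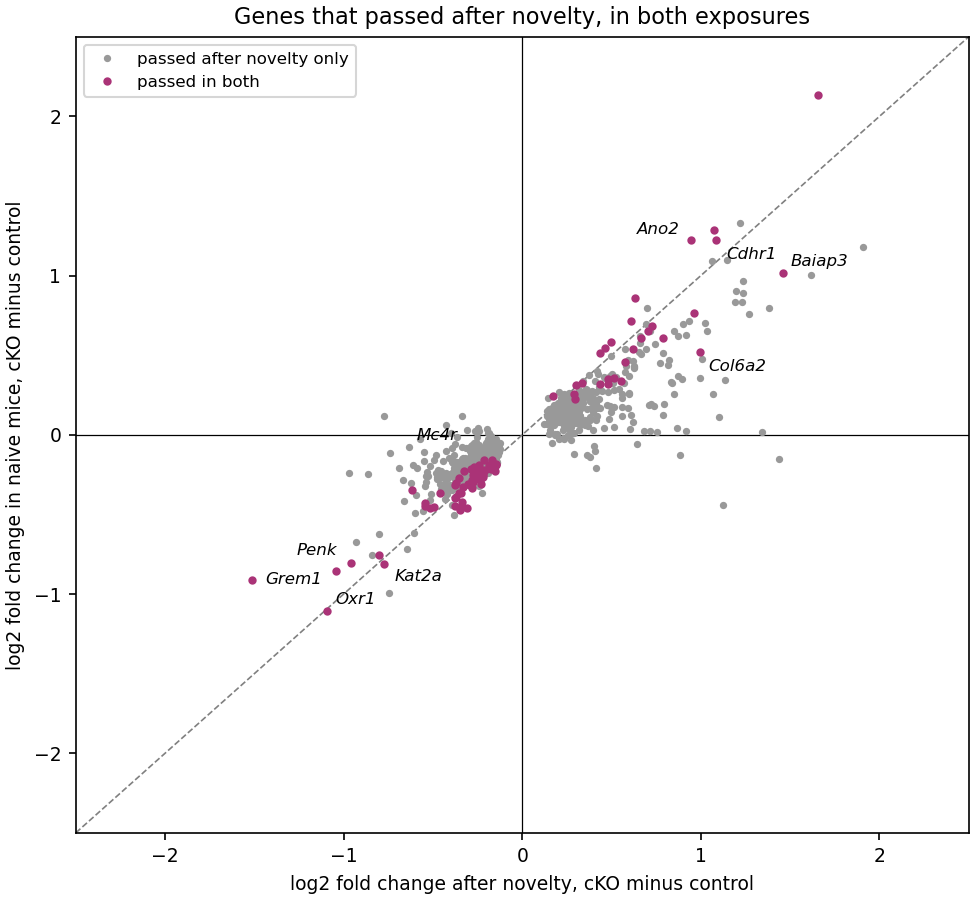
Each point is 1 of the 729 genes that passed after novelty and were tested in naive mice, at its log2 fold change (cKO minus control) after novelty (horizontal) and in naive mice (vertical). Purple points are the 86 that passed in both, the dashed line marks equal values, and most points lie in the lower left and upper right fields, on the side of the smaller naive value.

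Genes near the targeted locus were looked at apart. Within 1 Mb of Kat2a, 56 genes were tested and 1 passed, where 4.53% of all genes did. It was the huntingtin-associated gene Hap1, which rose from 168 ± 15.1 to 207 ± 17.5 CPM (log2 0.31, SE 0.07). A list of 20 genes flanking Kat2a had 16 with enough reads to be tested. None of these passed in edgeR or DESeq2, and 2 had an unadjusted p below 0.05. In the authors' deposited table for this contrast, made with DESeq2, 1312 of 16057 genes had an adjusted p below 0.05, 572 higher and 740 lower. Of the 733 genes called here, 729 are among them.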

How the data were processed

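Polyadenylated RNA was sequenced with a TruSeq kit, per the labels' protocols. The authors deposited raw read counts per gene and library, and the submitters' processing notes name STAR 2.3.0, HTSeq, DESeq2 and GRCm38.p2. The annotation release and the use of strand in counting, neither of them given in the sources used here, are unknown, and reads of overlapping or antisense genes cannot be told apart. A deposited table of this contrast holds, per the file headers, a mean normalised count (a signal), a log2 fold change with its error, and p-values.

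The 5 summary entries per count table (reads without a gene were 7.67 to 10.4% of novelty libraries) were removed. The control and cKO novelty libraries were compared by the edgeR 4.0.16 quasi-likelihood test under R 4.3.3 (TMM, robust fit, filterByExpr with a minimum count of 10, Benjamini-Hochberg over all genes tested). Genes passed at an adjusted p below 0.05. The fit was tested on simulated counts. Levels are CPM with TMM over 24 libraries, as mean ± SD, and SE is the standard error of a log2 fold change. Per-gene precision rests on 13020484 to 35754503 assigned reads per library. The naive contrast used the same test, and the interaction used all 24 libraries.

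Named genes are Kat2a, the 14 largest changes per direction with a mean of at least 50 reads, a symbol that is no predicted model or pseudogene and 1 sign in all 12 fits that leave out 1 library, and up to 4 members of each list with the smallest p, besides the highest and lowest member of a list. Atxn7, Taf6l, Camk2a, Hap1, Kat2b, Arc, Fos, Egr1, Homer1, Rps14 and Slc6a7 fall outside this rule and were named after their values were seen. The comparison, the lists and the rule were chosen with earlier results of these data known. Other scalings, no filter, DESeq2 1.42.0, limma-voom (limma 3.58.1), a replicate block and subsets of libraries were run as alternatives. Some results are not reported here.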

Additional observations from a re-analysis of the deposited data

Results flagged for a closer look

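In the 28 genes with the largest changes, each group of novelty libraries was searched for 1 library far from the others. Of 56 groups examined, 3 held one, and chance flags about 1 in 20 groups. Cdhr1 measured 10.9 CPM in control library 2, against 7.5 in the nearest control. Oxr1 measured 476 CPM in control library 3, against 379 in the nearest. Penk measured 36.6 CPM in control library 1, against 29.0 in the nearest. In all 3 genes the difference between genotypes passed in edgeR with each of the 12 libraries left out in turn.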

How the results depend on the processing

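The count of 733 genes after novelty was 728 with RLE and 710 with upper-quartile scaling, of which 43.5 and 54.6% were higher, against 46.9%. It was 700 without a filter, 783 with limma-voom, 787 with the spread taken from all 24 libraries and 669 with the part of the library numbers as a covariate. DESeq2 called 1162. With fewer libraries per group, those numbered 1 to 3 gave 17 and those numbered 4 and above 121. Leaving out 1 library gave 324 to 1025 genes after novelty. In naive mice the count of 131 was 462 with DESeq2 and 40 to 166 with 1 library left out. The interaction had 0 calls in edgeR under every scaling, without a filter and in DESeq2. The Kat2a level stayed at 57.3 to 59.4% of control with 1 library left out. It was 57.7% in libraries numbered 1 to 3 (exact permutation p = 0.1) and 58.9% in those numbered 4 and above (exact permutation p = 0.0667), in each case the smallest p that these groups can give.

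The replicate numbers of the titles were fitted as a replicate block. It gave 397 genes after novelty, 328 of them among the 733, and 70 in naive mice, and Kat2a at 58.5% of control (exact permutation over 32 sign changes, p = 0.0625, the smallest possible). Libraries of the same number mostly did not deviate together, with correlations of -0.11 to 0.35 after novelty and -0.16 to 0.38 in naive mice. Only number 3 after novelty and number 6 in naive mice had its best match in its own number. These few single correlations cannot decide whether libraries of a number share more than the number. With the block the potassium channel list had 4 lower genes, the postsynaptic list 6 and the calmodulin list 4. The choroid plexus and ependyma list, without calls in the main fit, had 3 higher genes with the block.

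None of the 99 named genes changed sign in any alternative run, all of which use libraries on which these genes were chosen. Those that no longer passed numbered 1 with RLE, 5 with upper-quartile scaling, 0 with DESeq2, 7 without a filter, 4 with limma-voom, 35 with the block and 1 to 37 with 1 library left out, most without control library 2 (37) and control library 5 (33). Depth limits genes of a few CPM most, where SEs reach 0.34 for Cldn26.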
